A study of Mus musculus with 4 samples.

Results

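The genes of the hypoxia response and of glycolysis followed here are 37 mouse genes, picked by symbol from the 31053 mouse genes of the count tables. They are 15 enzymes of glycolysis, 3 carriers of sugar and lactate, 3 regulators of glycolytic flux and 6 genes of oxygen sensing and its feedback. The others are 6 genes of mitochondria, lipid and collagen, and a mixed group of 4, Vegfa, Adm, Car9 and Ndrg1, called signalling genes here for short. They fill 38 rows, because Aldoa has a second identifier, ENSMUSG00000114515, whose row held at most 1 UMI per library in each class tested. All 37 had at least 1 unique molecular identifier (UMI, 1 captured transcript) in every library. The samples were 4 tumours grown for 14 days from the HER2+ mammary tumour line H605 in the mammary pad of FVB/NJ mice, given in the labels as 6 to 8 weeks old. In 2 tumours the host was wild type (WT), and in 2 the host was IL1α-/-, that is, without interleukin 1α (written Il1a-/- in the plots). The same H605 cells went into both kinds of host, so the tumour cells of the IL1α-/- group did not carry the host's deletion, and the labels name no further treatment. The tumours come from 1 transplanted line, each tumour gave 1 library, and the labels state that pairs were taken on separate days without saying which replicate belongs to which day.

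When oxygen is plentiful, prolyl hydroxylases of the Egln family mark the HIF alpha subunits for destruction through the Vhl protein. When oxygen is short, the subunits persist, pair with Arnt and bind short DNA motifs built around the letters CGTG. HIF then raises sugar transporters, nearly every step of glycolysis, lactate export and angiogenic factors, and it raises its own brakes, among them Egln3. Macrophages and T cells also raise glycolysis when activated, so these genes do not read oxygen alone.

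Cells were assigned to classes by marker genes, and the UMIs of a class were summed per library before any test, because cells of 1 tumour are not replicates. Levels are given as CPM, a gene's UMIs scaled to a fixed total of the class's UMIs, and normalised by the trimmed mean of M values (TMM) within each comparison unless said otherwise. Paired values give replicate 1 first and replicate 2 second. Libraries held 6705368 to 29001333 UMIs and 3130 to 3878 called cells, and both IL1α-/- libraries were shallower than both WT libraries. IL1α-/- replicate 1 was the shallowest, with a median of 1348 UMIs per cell against 2883.5 to 4160 in the other libraries. T/NK-like cells, that is T and natural killer cells, numbered 2047 to 2261 per library, mononuclear phagocyte-like cells 140 to 664, fibroblast-like cells 210 to 339 and plasmacytoid dendritic-like cells 77 to 162. WT libraries gave 361 and 221 tumour epithelial-like cells and IL1α-/- libraries 26 and 3, so the tumour cells themselves could not be compared between hosts. Libraries shared 0 to 5 cell barcodes per pair. Il1a, counted to check the host genotype, stood at 30.9 and 23.2 CPM in WT and 3.33 and 0 CPM in IL1α-/- in phagocyte-like cells (log2 fold change -5.38, SE 0.84, edgeR adjusted p = 0.036). The labels do not say which exons are deleted, so whether this 3′ readout lies in the deleted part was not tested. With 2 tumours per group, an exact permutation test over samples cannot go below p = 0.333, and the p-values below measure the spread between these samples only.

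The promoters of the members were read for the core letters of the HIF motif, ACGTG and GCGTG on either strand, from 250 bases before to 50 bases after each RefSeq start (assembly GRCm38.p6). Of the 37 members, 34 had an entry. At least 1 of these motifs lay in a window of 31 of the 34 members (91.2%), against 46.7% of 27025 genes. By single windows it was 39 of 50 (78%), against 43.8% of 32851 windows. CACGTG counts once on each strand, and the windows were not matched for base composition. Eno2, Tpi1 and Gpi1 held no match in these windows. Stretches around matches that lie outside annotated exons are shown for members whose levels are described below, with the matches in capitals, in 5′ to 3′ order on the gene's strand. A match on the opposite strand reads CACGT or CACGC here:
Mxi1, chr19:53329325-53329373, plus strand: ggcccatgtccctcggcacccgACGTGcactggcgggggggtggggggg
Hk2, chr6:82774480-82774528, minus strand: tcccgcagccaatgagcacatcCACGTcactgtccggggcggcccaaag
Bnip3, chr7:138909588-138909636, minus strand: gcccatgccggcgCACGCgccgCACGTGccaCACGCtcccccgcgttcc
Ldha, chr7:46845734-46845782, plus strand: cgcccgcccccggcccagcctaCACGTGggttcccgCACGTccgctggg
Pgk1, chrX:106186928-106186976, plus strand: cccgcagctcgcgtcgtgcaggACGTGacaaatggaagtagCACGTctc
Egln3, chr12:54204077-54204124, minus strand: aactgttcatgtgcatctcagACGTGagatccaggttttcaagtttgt
The Mxi1 and Ldha stretches precede RefSeq starts that lie within the annotated genes, which span chromosome 19 from 53310518 to 53375810 and chromosome 7 from 46841475 to 46855627. Hk2 is annotated on chromosome 6 from 82725025 to 82774454, Bnip3 on chromosome 7 from 138890836 to 138909519, Pgk1 on chromosome X from 106187100 to 106203699 and Egln3 on chromosome 12 from 54178981 to 54203860. Bnip3 is shown because its matches lie close together, and Mxi1 and Hk2 because they rose in T/NK-like cells. A match states only that these letters are present.

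The 37 genes together took a larger part of the UMIs in tumour epithelial-like and phagocyte-like cells than in fibroblast-like and plasmacytoid dendritic-like cells of the same library. Their summed share was 0.726% and 0.824% of tumour epithelial-like UMIs in WT and 0.681% in the 26 cells of IL1α-/- replicate 1. In phagocyte-like cells the share was 0.412% and 0.814% in WT and 0.913% and 1.37% in IL1α-/-. In T/NK-like cells it was 0.354% and 0.453% in WT and 0.447% and 0.718% in IL1α-/-. Fibroblast-like cells stood lower, at 0.233% and 0.439% in WT and 0.251% and 0.375% in IL1α-/-, and plasmacytoid dendritic-like cells at 0.197% and 0.297% in WT and 0.268% and 0.337% in IL1α-/-. WT replicate 1 was the lowest library in each of these 4 host classes, and IL1α-/- replicate 2 was the highest in each except the fibroblast-like cells, where WT replicate 2 was. The RNA outside cells, read from barcodes with at most 100 UMIs, held the 37 genes at 0.387% and 0.454% in WT and 0.408% and 0.76% in IL1α-/-, so the free RNA of IL1α-/- replicate 2 also stood apart. Its part in the values of the cells was not tested.

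**Figure D1:**
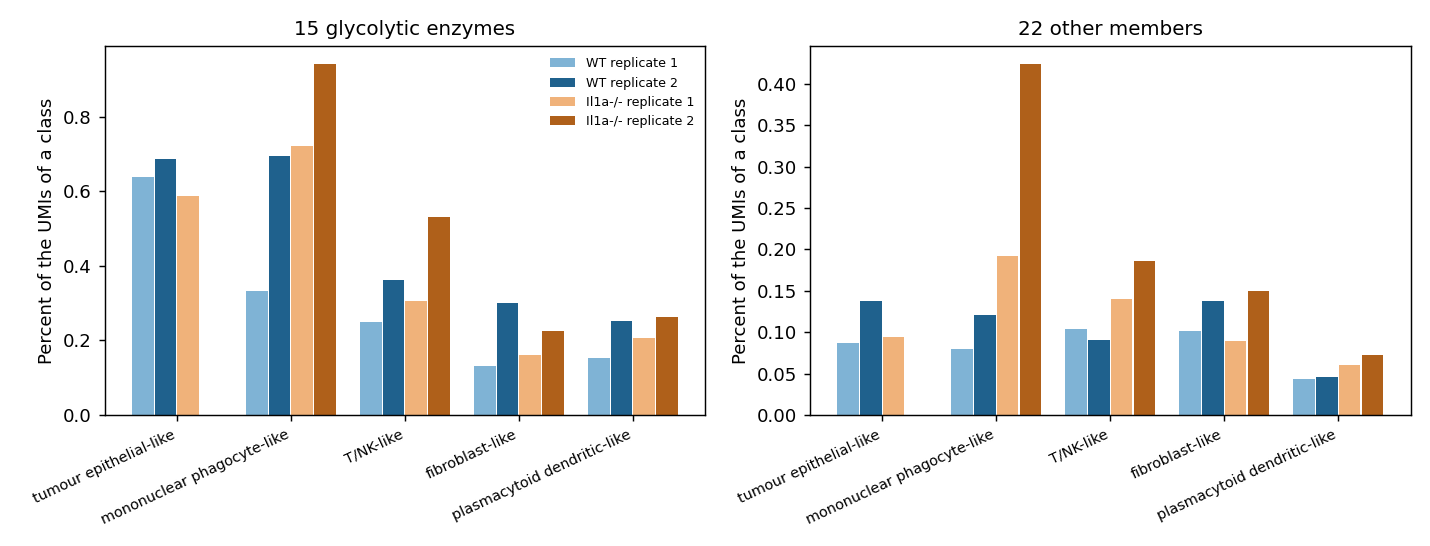
Percent of a class's UMIs held by the 15 glycolytic enzymes (left axis) and by the 22 other members (right axis) in each library, with 1 bar per library and no error bar because each bar is 1 library. The 3 tumour epithelial-like cells of IL1α-/- replicate 2 are left out; in phagocyte-like cells the 22 other members go from 0.0795% in WT replicate 1 to 0.424% in IL1α-/- replicate 2.

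By the median over libraries, 27 of the 37 genes stood highest in phagocyte-like cells among the 4 host classes, 5 in fibroblast-like, 4 in T/NK-like and 1 in plasmacytoid dendritic-like cells. The smaller classes, neutrophil-like cells among them, were left out of this ranking. Against T/NK-like cells of the same libraries, 27 of 36 tested members were higher in phagocyte-like cells and 3 were lower at an adjusted p under 0.05, with a median log2 difference of 1.19. Of all 11087 genes tested there, 29.5% were higher and 60.5% passed in either direction. Hk2, the inducible hexokinase that traps glucose in the cell, stood at 120.3 and 124 CPM in WT and 208 and 232 CPM in IL1α-/- in phagocyte-like cells against 21.8 and 19.3 CPM in WT and 42.3 and 48.98 CPM in IL1α-/- in T/NK-like cells (log2 difference 2.43, SE 0.13, edgeR adjusted p = 1.49e-07). Slc16a3, which exports lactate, stood at 48.7 and 98.02 CPM in WT and 163 and 204 CPM in IL1α-/- against 9.11 and 13.1 CPM in WT and 18.1 and 34.4 CPM in IL1α-/- (log2 difference 2.74, SE 0.15, edgeR adjusted p = 2.02e-07). For both genes the phagocyte-like value was the higher one in each of the 4 libraries.

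The glucose transporters split by class. Slc2a1, the widely used transporter, stood at 31.02 and 75.1 CPM in WT and 153 and 183 CPM in IL1α-/- in phagocyte-like cells and 20.8 and 23.5 CPM in WT and 30.5 and 52.8 CPM in IL1α-/- in T/NK-like cells (log2 difference 1.59, SE 0.23, edgeR adjusted p = 0.000188). Slc2a3, a high-affinity transporter of lymphocytes and neurons, went the other way, at 2.67 and 1.77 CPM in WT and 0 and 7.79 CPM in IL1α-/- against 33.9 and 32.7 CPM in WT and 49.5 and 95.7 CPM in IL1α-/- (log2 difference -3.89, SE 0.24, edgeR adjusted p = 4.45e-07). No library overlapped between the classes for Slc2a3, and plasmacytoid dendritic-like cells also carried it, at 61.2 and 42.6 CPM in WT and 39.1 and 65.5 CPM in IL1α-/- before TMM scaling. The other members lower in phagocyte-like cells were Bhlhe40, a transcriptional repressor (log2 difference -0.74, SE 0.16, edgeR adjusted p = 0.00287), and Hk1, the constitutive hexokinase (log2 difference -0.57, SE 0.19, edgeR adjusted p = 0.0245), whose call was lost when any library but IL1α-/- replicate 2 was left out (edgeR adjusted p of 0.113, 0.111 and 0.0577) and with classes taken from clusters. Pfkfb4, which sets the level of the allosteric activator of phosphofructokinase, had the largest difference, at 29.4 and 30.3 CPM in WT and 29.3 and 21.2 CPM in IL1α-/- against 0.739 and 0.921 CPM in WT and 1.78 and 1.43 CPM in IL1α-/- (log2 difference 4.60, SE 0.30, edgeR adjusted p = 6.27e-07).

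A few members stood highest outside the immune cells. Adm, which encodes the vasodilator adrenomedullin, stood at 364 and 101 CPM in WT and 103 and 64.3 CPM in IL1α-/- in fibroblast-like cells, and in phagocyte-like cells its UMI counts were 1 and 7 in WT and 0 and 18 in IL1α-/-. P4ha2, a collagen prolyl hydroxylase, stood at 74.3 and 175 CPM in WT and 49.8 and 175 CPM in IL1α-/- in fibroblast-like cells and at 1.54 and 4.65 CPM in WT and 3.48 and 19.7 CPM in IL1α-/- in phagocyte-like cells. WT replicate 1 was the high library for Adm, and IL1α-/- replicate 1 was the low one for P4ha2. These levels are CPM before TMM scaling and were not tested against each other.

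Tumour epithelial-like cells were measured well only in WT. Egln3, the HIF-induced prolyl hydroxylase, stood there at 169 CPM (95% exact Poisson interval 157 to 181) and 187 CPM (95% exact Poisson interval 174 to 201), and at 162 CPM (95% exact Poisson interval 105 to 239) in IL1α-/- replicate 1. The free RNA of the same libraries held it at 48.2, 32.4 and 8.07 CPM. Hilpda, a lipid droplet protein, stood lower in tumour epithelial-like cells than in the free RNA, at 24.6 and 27.4 CPM in WT against 41.96 and 43.5 CPM. Intervals cover counting error only. The neutrophil-like class held 34 and 63 cells in WT and 5 and 8 in IL1α-/-. In it Slc2a3 stood at 168 CPM (95% exact Poisson interval 67.5 to 346) and 187 CPM (95% exact Poisson interval 109 to 300.0) in WT. Slc16a3 at 816 and 650 CPM, Slc2a1 at 168 and 242 CPM and Pfkfb4 at 120 and 154 CPM in WT also exceeded the phagocyte-like cells of the same libraries. Other members, Ldha among them at 120 and 496 CPM, lay below those cells. These differences were not tested. Neither the tumour epithelial-like nor the neutrophil-like class was tested between hosts.

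In phagocyte-like cells, 32 of the 34 members tested had a higher level in IL1α-/- than in WT hosts, and 2 of the 34 rose at an adjusted p under 0.05: Eno2, the second enolase of glycolysis, and Vegfa, the main angiogenic factor. Of all 8829 genes tested, 48.1% had a higher level, 0.68% rose and 0.827% passed in either direction. The median log2 fold change of the members was 0.90, against -0.022 over all genes. In 24 of the 34 both IL1α-/- libraries were above both WT libraries (22.5% of all genes), and 25 had an unadjusted p under 0.05 (13.7% of all genes). Pfkfb4 and Car9 were the members with a negative log2 fold change, -0.32 and -0.05. Slc2a3, Adm and P4ha2 had too few UMIs to be tested, as did the second Aldoa row.

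**Figure D2:**
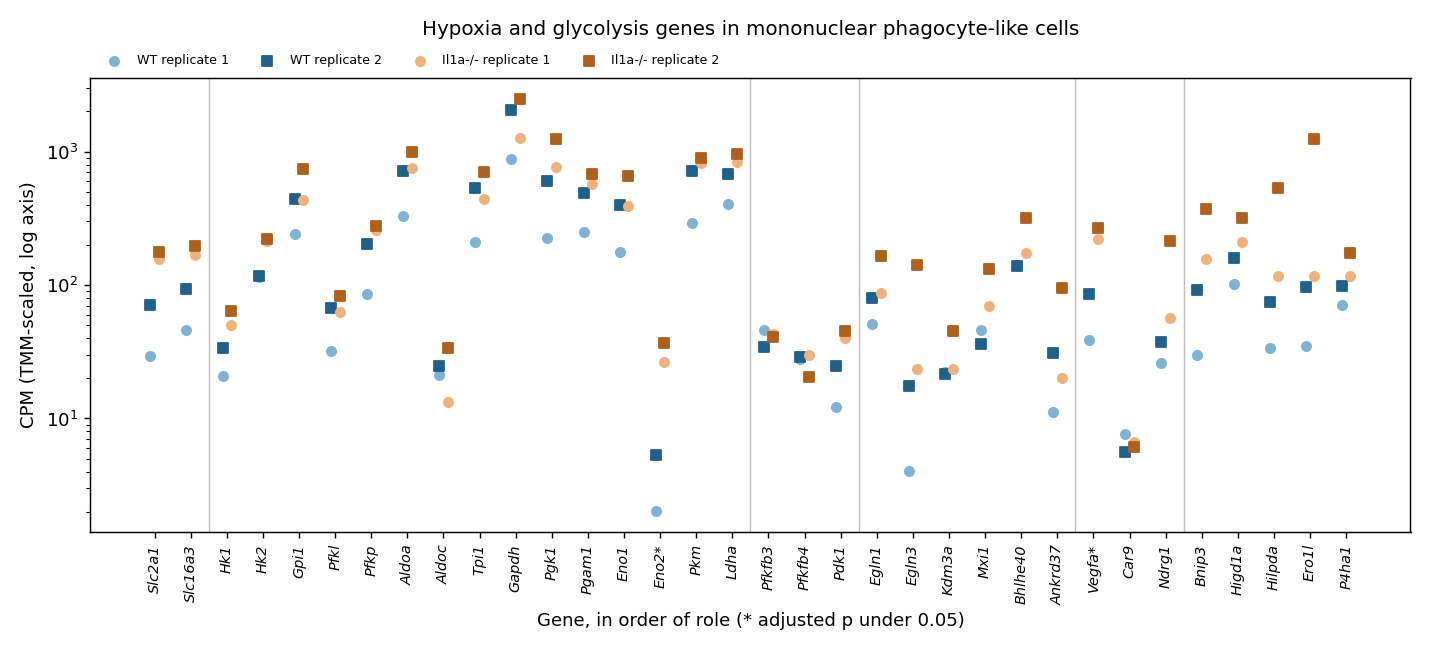
Level of each of the 34 tested members in mononuclear phagocyte-like cells, as TMM-scaled CPM on a log axis, with 1 point per library and vertical lines between groups of genes by role. For most genes both orange points (IL1α-/-) lie above both blue points (WT), and IL1α-/- replicate 2 is the highest library for 31 of the 34.

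Among the carriers, Slc2a1 stood at 29.4 and 71.2 CPM in WT and 157 and 175 CPM in IL1α-/- (log2 fold change 1.71, SE 0.37, edgeR adjusted p = 0.0727). Slc16a3 stood at 46.2 and 92.95 CPM in WT and 167 and 195 CPM in IL1α-/- (log2 fold change 1.38, SE 0.32, edgeR adjusted p = 0.0944). Both IL1α-/- libraries were above both WT libraries for each gene, and neither passed the test. Slc2a3 had UMI counts of 5 and 6 in WT and 0 and 11 in IL1α-/-.

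All 15 glycolytic enzymes had a positive log2 fold change in phagocyte-like cells, with a median of 0.76, and 1 of them passed the test. Eno2 stood at 2.03 and 5.30 CPM in WT and 26.6 and 36.6 CPM in IL1α-/-, from UMI counts of 4 and 19 in WT and 8 and 54 in IL1α-/-. The groups did not overlap (log2 fold change 3.05, SE 0.45, edgeR adjusted p = 0.036), and the means were 3.67 ± 2.32 CPM in WT against 31.6 ± 7.03 CPM in IL1α-/- (SD, n = 2 in each). Its paralog Eno1, the abundant enolase, stood at 178 and 395 CPM in WT and 393 and 661 CPM in IL1α-/-, with overlapping groups (log2 fold change 0.89, SE 0.38, edgeR adjusted p = 0.348). Eno2 is annotated on chromosome 6 from 124760053 to 124769673. The UMI counts behind it are small, and in T/NK-like cells it had too few to be tested. The free RNA held Eno2 at 2.07 and 14.9 CPM in WT and 5.38 and 51.5 CPM in IL1α-/-, above the phagocyte-like level in every library but IL1α-/- replicate 1, and there the groups overlapped.

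At the first step of glycolysis, Hk2 stood at 114 and 118 CPM in WT and 213 and 222 CPM in IL1α-/- (log2 fold change 0.91, SE 0.21, edgeR adjusted p = 0.0931). Its 2 libraries per group lay close together, and the groups did not overlap. Hk1 stood at 20.8 and 33.5 CPM in WT and 49.95 and 64.4 CPM in IL1α-/- (log2 fold change 1.10, SE 0.30, edgeR adjusted p = 0.144). Further down, Pgk1, which makes ATP in the pathway's second part, stood at 224 and 604 CPM in WT and 769 and 1237 CPM in IL1α-/- (log2 fold change 1.28, SE 0.43, edgeR adjusted p = 0.225). Ldha, which turns pyruvate into lactate, stood at 402 and 677 CPM in WT and 836 and 961 CPM in IL1α-/- (log2 fold change 0.74, SE 0.28, edgeR adjusted p = 0.293). For Pgk1 and Ldha the groups did not overlap, while Gapdh at 878 and 2050.0 CPM in WT and 1269 and 2478 CPM in IL1α-/- and Tpi1 at 211 and 532 CPM in WT and 443 and 702 CPM in IL1α-/- overlapped. WT replicate 1 was the lowest library for all of these genes. The 7 enzymes not yet named ran from a log2 fold change of 0.29 for Aldoc, the brain-type aldolase, to 0.87 for Pfkp, the platelet-type phosphofructokinase. Between them lay Pfkl, Aldoa, the pyruvate kinase Pkm, the mutase Pgam1 and the isomerase Gpi1, and none of the 7 passed. Gapdh, Pgk1, Ldha, Tpi1 and Eno1 have near-identical pseudogene copies in the genome, and how reads shared between copies were counted is not given in the sources used here.

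The regulators of flux gave mixed values. Pfkfb3, which raises phosphofructokinase activity, stood at 45.6 and 34.3 CPM in WT and 43.3 and 40.6 CPM in IL1α-/-, and Pfkfb4 at 27.9 and 28.8 CPM in WT and 29.97 and 20.3 CPM in IL1α-/-. Pdk1, the kinase that keeps pyruvate out of mitochondria, stood at 12.2 and 24.6 CPM in WT and 39.96 and 45.4 CPM in IL1α-/- (log2 fold change 1.19, SE 0.36, edgeR adjusted p = 0.19). The groups overlapped for both Pfkfb genes and not for Pdk1, and none of these 3 genes passed.

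All 6 oxygen-sensing and feedback genes had a positive log2 fold change, from 0.83 for the histone demethylase Kdm3a to 3.03 for Egln3, and none passed the adjusted test, while all 6 had an unadjusted p under 0.05. Egln3 stood at 4.06 and 17.6 CPM in WT and 23.3 and 140.2 CPM in IL1α-/- (log2 fold change 3.03, SE 0.65, edgeR adjusted p = 0.0727). Mxi1, a repressor that opposes Myc, stood at 45.6 and 36.3 CPM in WT and 69.9 and 133 CPM in IL1α-/- (log2 fold change 1.41, SE 0.30, edgeR adjusted p = 0.0727). IL1α-/- replicate 2 was the high library for both, far above the other 3 for Egln3. Egln1, the main prolyl hydroxylase, stood at 50.7 and 79.8 CPM in WT and 86.6 and 165 CPM in IL1α-/-, and Bhlhe40 at 142 and 138 CPM in WT and 173 and 316 CPM in IL1α-/-. Ankrd37, a small ankyrin repeat protein, was the member of this role whose groups overlapped, at 11.2 and 30.98 CPM in WT and 19.98 and 95.5 CPM in IL1α-/-.

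Among the signalling genes, Vegfa stood at 38.5 and 85.7 CPM in WT and 219.8 and 266 CPM in IL1α-/-. Both IL1α-/- libraries were more than 2 times the higher WT library (log2 fold change 1.96, SE 0.35, edgeR adjusted p = 0.0439), and the means were 62.1 ± 33.3 CPM in WT against 243 ± 32.8 CPM in IL1α-/- (SD, n = 2 in each). Free RNA held Vegfa at 67.3 and 75.9 CPM in WT and 134 and 185 CPM in IL1α-/-, so the host groups were apart there too, and in WT replicate 1 its value was above the phagocyte-like one. Ndrg1, a stress gene induced by low oxygen and by metals, stood at 25.9 and 37.1 CPM in WT and 56.6 and 215 CPM in IL1α-/- (log2 fold change 2.23, SE 0.47, edgeR adjusted p = 0.0651), again with IL1α-/- replicate 2 far above the rest. Car9, the membrane carbonic anhydrase often used to mark hypoxic tumour regions, had UMIs of 15 and 20 in WT and 2 and 9 in IL1α-/- and was nearly level once scaled (log2 fold change -0.05, SE 0.52, edgeR adjusted p = 0.996).

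The genes of mitochondria, lipid and collagen had the highest median of the roles, 2.15 over 5 tested members, with all 5 groups apart and none past the adjusted test. Bnip3, which marks mitochondria for removal, stood at 29.9 and 91.6 CPM in WT and 157 and 372 CPM in IL1α-/- (log2 fold change 2.15, SE 0.51, edgeR adjusted p = 0.0944). Hilpda stood at 33.98 and 74.8 CPM in WT and 117 and 535 CPM in IL1α-/- (log2 fold change 2.63, SE 0.59, edgeR adjusted p = 0.0829). Ero1l, the oxidase of the endoplasmic reticulum, stood at 34.99 and 96.02 CPM in WT and 117 and 1236 CPM in IL1α-/- (log2 fold change 3.39, SE 0.85, edgeR adjusted p = 0.116). For Hilpda and Ero1l, IL1α-/- replicate 1 lay above the WT range but closer to it, and IL1α-/- replicate 2 was several times the next library. The free RNA held Ero1l at 29.01 and 57.1 CPM in WT and 32.3 and 224 CPM in IL1α-/-, so the same library was also the high one there. Higd1a, a mitochondrial protein, stood at 101 and 159.9 CPM in WT and 209.8 and 319 CPM in IL1α-/-, and P4ha1, the first collagen prolyl hydroxylase, at 71.00 and 98.3 CPM in WT and 117 and 173 CPM in IL1α-/-.

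The number of members that passed the test in phagocyte-like cells depended on single libraries. It was 0 without IL1α-/- replicate 2, where 31 of 34 members had a positive log2 fold change with a median of 0.64 and 5 had an unadjusted p under 0.05. There Eno2 and Vegfa had adjusted p-values of 0.348 and 0.33 in edgeR. Leaving out IL1α-/- replicate 1 gave 6, WT replicate 1 gave 7 and WT replicate 2 gave 23, each of 37 tested. Of all genes 0.0211% passed without IL1α-/- replicate 2, and 0.764%, 1.11% and 3.45% in the other 3 settings. Vegfa also lost its call without IL1α-/- replicate 1 (edgeR adjusted p = 0.0981). With only cells of 1000 or more UMIs, Eno2 and Vegfa had edgeR adjusted p-values of 0.0519 and 0.0632, and with classes taken from clusters Vegfa had 0.0923. Set against WT replicate 1, the lowest library for 27 of the 34 members, 31 were higher in each IL1α-/- library, as were 47.5% of all genes in IL1α-/- replicate 1 and 49.5% in IL1α-/- replicate 2. Set against WT replicate 2, 27 members were higher in IL1α-/- replicate 1 (47.1% of all genes) and 33 in IL1α-/- replicate 2 (48.8%).

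Other measures also differed between hosts in the same cells, while the sum of the T/NK markers overlapped. The 14 phagocyte markers summed to 18430 and 15400 CPM in WT and 11090 and 9753 CPM in IL1α-/-, and the 12 genes that respond to tissue dissociation to 5318 and 3582 CPM in WT and 6775 and 7059 CPM in IL1α-/-. The 13 T/NK markers summed to 17.0 and 26.3 CPM in WT and 55.7 and 19.7 CPM in IL1α-/-. The sum was highest in IL1α-/- replicate 1, where 7 of the 13 were at 0 UMIs, the T cell receptor genes Cd3d, Cd3e, Cd3g and Trac among them, against 3 and 1 in WT and 1 in IL1α-/- replicate 2. The 11 tumour epithelial markers summed to 97.1 and 99.8 CPM in WT and 52.2 and 85.0 CPM in IL1α-/-. Of these, 2 and 3 were at 0 UMIs in WT and 9 and 8 in IL1α-/-, where Wfdc18, Cdh1 and, in replicate 2, Cldn7 were the ones with UMIs. The part of these in the member values was not tested. Of 1534 phagocyte-like cells, 203 lay at the edge of the marker rule.

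For Vegfa the share of cells with a UMI was also counted after thinning every cell to 1000 UMIs. This left out 39 and 101 shallower phagocyte-like cells in WT and 23 and 28 in IL1α-/-. At such depth the share rises with the mean level either way. It therefore restates the level and cannot say whether more cells carried Vegfa or each carried more. The share was 3.19% and 5.68% of phagocyte-like cells in WT and 18.8% and 18.6% in IL1α-/-, and 9.90% and 17.5% against 26.4% and 39.6% without thinning. CD8 T-like cells, taken as the class with little Vegfa, gave 0% and 0.752% in WT and 0.404% and 1.65% in IL1α-/- after thinning (0.694%, 2.25%, 0.834% and 5.96% without). The 0 of 142 CD8 T-like cells in WT replicate 1 allows a share of up to 2.11%. The phagocyte-like shares lay above those of the CD8 T-like cells of the same library, and both IL1α-/- libraries lay above both WT libraries.

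Phagocyte-like cells were further divided by markers into macrophage-like and monocyte-like cells. In macrophage-like cells (239 and 406 in WT, 45 and 147 in IL1α-/-), 31 of 33 tested members had a positive log2 fold change, with a median of 0.91, and 3 rose, where of 7555 genes 48.7% were positive, 0.397% rose and 0.424% passed in either direction. These were Hilpda at 34.5 and 55.00 CPM in WT and 174 and 529.9 CPM in IL1α-/- (log2 fold change 3.06, SE 0.47, edgeR adjusted p = 0.0383), Ndrg1 at 19.2 and 30.7 CPM in WT and 82.9 and 153 CPM in IL1α-/- (log2 fold change 2.35, SE 0.36, edgeR adjusted p = 0.0383) and Vegfa at 45.3 and 82.5 CPM in WT and 240.4 and 269 CPM in IL1α-/- (log2 fold change 1.99, SE 0.33, edgeR adjusted p = 0.0453). The free RNA held Hilpda at 41.96 and 43.5 CPM in WT and 72.6 and 237 CPM in IL1α-/- and Ndrg1 at 16.1 and 25.2 CPM in WT and 29.6 and 61.3 CPM in IL1α-/-, again with the groups apart. The groups of macrophage-like cells did not overlap for any of the 3. Each of the 3 lost its call without WT replicate 1 and without IL1α-/- replicate 2. With libraries left out, the log2 fold change ran from 1.87 to 3.54 for Hilpda, 1.635 to 2.705 for Ndrg1 and 1.615 to 2.49 for Vegfa. In monocyte-like cells (97 and 173 in WT, 59 and 134 in IL1α-/-), 30 of 31 members had a positive log2 fold change (47.9% of all genes), with a median of 1.03. By edgeR none of them passed at an adjusted p under 0.05 and 20 had an unadjusted p under 0.05, where 0.0185% and 8.79% of 5391 genes did. The number past the adjusted test changed with the library left out.

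Few members differed between macrophage-like and monocyte-like cells of the same libraries. Of 33 members tested, 2 were higher and 1 lower in macrophage-like cells, where 18.4% of 7289 genes passed. Bhlhe40 stood at 145 and 157 CPM in WT and 231 and 415 CPM in IL1α-/- in macrophage-like cells and 55.7 and 94.9 CPM in WT and 85.5 and 203 CPM in IL1α-/- in monocyte-like cells (log2 difference 1.04, SE 0.17, edgeR adjusted p = 0.00036). Hk2 was the other higher member (log2 difference 0.59, SE 0.19, edgeR adjusted p = 0.0414), and Pfkp, the platelet-type phosphofructokinase, was the lower one (log2 difference -0.47, SE 0.16, edgeR adjusted p = 0.0463). Pfkp lost its call when any of the 4 libraries was left out, and Hk2 without WT replicate 1 or IL1α-/- replicate 1, while Bhlhe40 kept it in all 6 other settings.

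Phagocyte-like cells differ in Arg1, the arginase of suppressive myeloid cells, which is itself reported to respond to hypoxia. Cells with at least 1 Arg1 UMI were 85 of 384 and 332 of 664 in WT and 28 of 140 and 183 of 346 in IL1α-/-. Within libraries, all 34 tested members were higher in Arg1-positive than in Arg1-negative cells and 28 passed the test, where 50.8% of 7790 genes were higher, 3.83% passed in that direction and 8.7% in either. The median log2 difference was 1.05. All 6 genes of mitochondria, lipid and collagen passed, 13 of 15 glycolytic enzymes, 5 of 6 oxygen-sensing genes and 1 of 3 flux regulators. Arg1-positive cells were also deeper, with a median of 6674 and 5742 UMIs in WT and 2345.5 and 4364 in IL1α-/-, against 3608, 3804.5, 1705 and 3231 in Arg1-negative cells. A deeper cell is more likely to show an Arg1 UMI, and the part of depth in the difference was not tested.

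Bnip3 stood at 21.9 and 42.3 CPM in WT and 114 and 52.1 CPM in IL1α-/- in Arg1-negative cells and 50.6 and 125 CPM in WT and 272 and 634 CPM in IL1α-/- in Arg1-positive cells (log2 difference 2.07, SE 0.30, edgeR adjusted p = 0.000344). Pgk1 stood at 183 and 389 CPM in WT and 595 and 338 CPM in IL1α-/- against 334 and 757 CPM in WT and 1236 and 1979.5 CPM in IL1α-/- (log2 difference 1.36, SE 0.23, edgeR adjusted p = 0.00102). Egln3 stood at 3.01 and 8.16 CPM in WT and 4.54 and 9.48 CPM in IL1α-/- against 6.75 and 24.02 CPM in WT and 74.2 and 247 CPM in IL1α-/- (log2 difference 3.09, SE 0.43, edgeR adjusted p = 0.000209). In each of these genes the Arg1-positive cells were higher in every library, and the gap was widest in IL1α-/- replicate 2. Ero1l stood at 26.4 and 48.2 CPM in WT and 81.8 and 66.3 CPM in IL1α-/- in Arg1-negative cells and 57.4 and 129 CPM in WT and 210.2 and 2188 CPM in IL1α-/- in Arg1-positive cells (log2 difference 2.47, SE 0.49, edgeR adjusted p = 0.00366), so in IL1α-/- replicate 2 the high level lay in the Arg1-positive cells. Pfkp, Kdm3a, Pfkfb3, Pfkfb4, Hk1 and Slc2a1 did not pass. Leaving out WT replicate 2 left 16 members past the test, and leaving out IL1α-/- replicate 1 left 15.

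**Figure D3:**
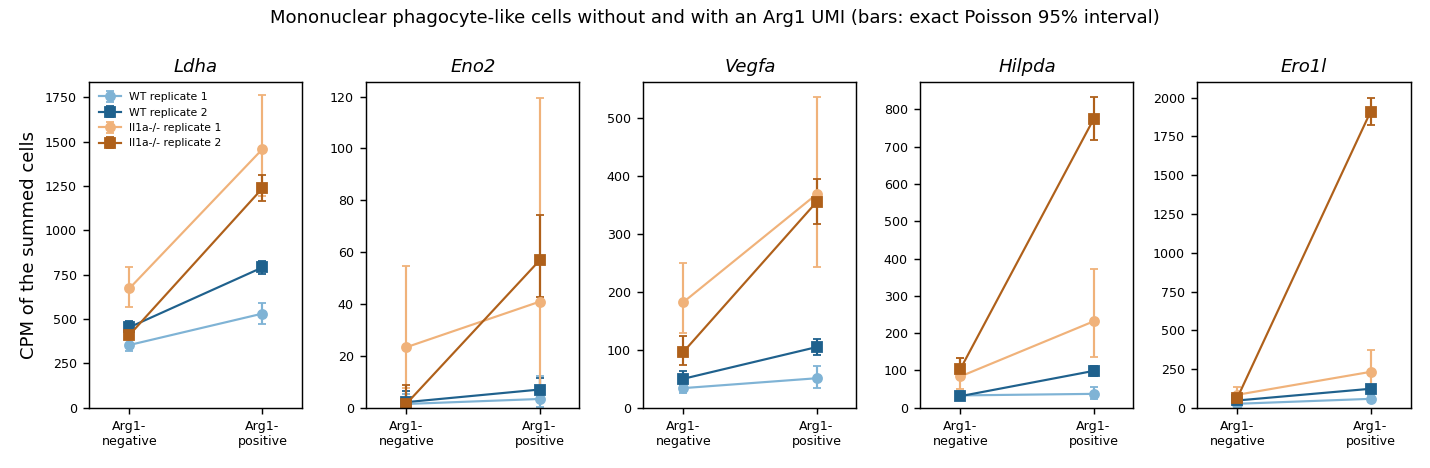
Level of 5 members in mononuclear phagocyte-like cells without and with an Arg1 UMI, as CPM of the summed cells, with 1 line per library and bars for the exact 95% Poisson interval of counting error. Ero1l reaches its high level only in the Arg1-positive cells of IL1α-/- replicate 2; Eno2 rests on few UMIs.

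The share of UMIs held by the 37 members shows both divisions at once. In Arg1-negative cells it was 0.369% and 0.544% in WT and 0.759% and 0.494% in IL1α-/-, and in Arg1-positive cells 0.51% and 0.978% in WT and 1.36% and 1.97% in IL1α-/-. Arg1-positive cells were higher in all 4 libraries. Within Arg1-positive cells both IL1α-/- libraries exceeded both WT libraries, and within Arg1-negative cells IL1α-/- replicate 2 lay below WT replicate 2. Tested between hosts, 9 of 34 members rose in Arg1-positive cells alone, where 1.72% of 7043 genes rose and 2.23% passed in either direction. There 33 of 34 were positive, with a median of 1.26, and 28 had an unadjusted p under 0.05, against 47.5% and 13.9% of all genes. In Arg1-negative cells alone edgeR called 0 of 31, where 0.04% of 7503 genes rose and 0.0666% passed in either direction. There 25 of 31 were positive, with a median of 0.47, and 9 had an unadjusted p under 0.05, against 49.7% and 10.9% of all genes. Whether the host difference differs between the 2 kinds of cell was not tested.

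In T/NK-like cells all 33 tested members had a positive log2 fold change, where 48.7% of all genes did, with a median of 0.60 against -0.017, and 5 rose at an adjusted p under 0.05. Of all 11030 genes tested, 3.58% rose and 6.36% passed in either direction. The 5 were Mxi1, Hk2, Hilpda, Slc16a3 and Slc2a3. The IL1α-/- libraries did not overlap with WT in 14 of the 33 (27.4% of all genes), and 14 had an unadjusted p under 0.05 (25.4% of all genes in either direction). By single libraries, IL1α-/- replicate 2 exceeded WT replicate 2 in 33 members and WT replicate 1 in 32, against 47.9% and 49.1% of all genes. IL1α-/- replicate 1 exceeded WT replicate 1 in 25 and WT replicate 2 in 17, against 48.7% and 48.5% of all genes. Without IL1α-/- replicate 2, the count with a positive log2 fold change was 21 of 33, with a median of 0.16. The 14 phagocyte markers in T/NK-like cells summed to 650 and 602 CPM in WT and 650 and 998 CPM in IL1α-/-, so IL1α-/- replicate 2 was also the high library there, and their part in the member values was not tested.

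**Figure D4:**
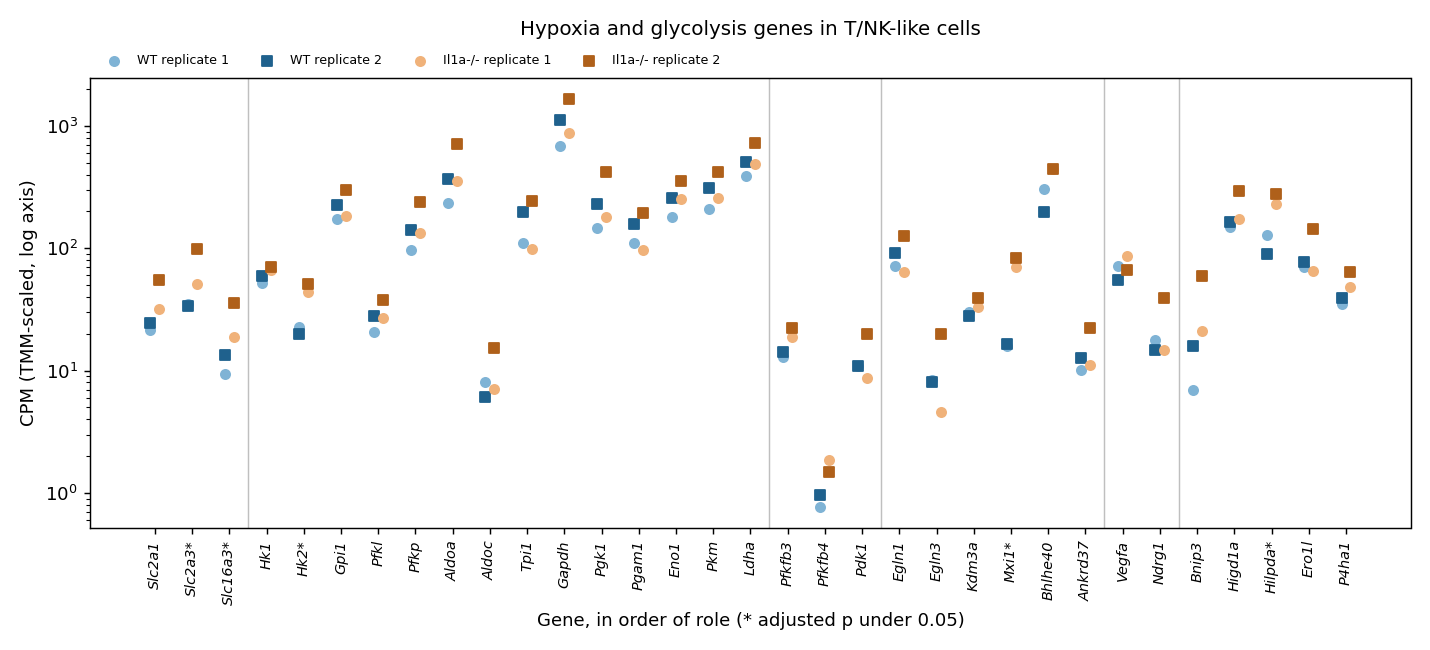
Level of each of the 33 tested members in T/NK-like cells, as TMM-scaled CPM on a log axis, with 1 point per library and vertical lines between groups of genes by role. Mxi1 and Hk2 keep the 2 host groups apart with little spread, while for most enzymes only IL1α-/- replicate 2 stands above the WT points.

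Mxi1 stood at 15.8 and 16.6 CPM in WT and 70.9 and 83.9 CPM in IL1α-/-, from UMI counts of 124 and 192 in WT and 230 and 679 in IL1α-/-. The 2 libraries of a group lay close together and the groups were far apart (log2 fold change 2.26, SE 0.17, edgeR adjusted p = 0.000661), with means of 16.2 ± 0.589 CPM in WT against 77.4 ± 9.19 CPM in IL1α-/- (SD, n = 2 in each). In the free RNA Mxi1 stood at 32.1 and 26.005 CPM in WT and 20.2 and 80.04 CPM in IL1α-/-, with overlapping groups. In T/NK-like cells it passed in all 14 other settings, with a log2 fold change between 2.12 and 2.38. Of the oxygen-sensing genes it was the only one to pass, and Bhlhe40 stood at 305 and 199.8 CPM in WT and 447 and 447 CPM in IL1α-/- (log2 fold change 0.83, SE 0.22, edgeR adjusted p = 0.0565).

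All 3 carriers had both IL1α-/- libraries above WT, and 2 of them passed. Slc2a3 stood at 35.05 and 33.8 CPM in WT and 51.5 and 99.2 CPM in IL1α-/- (log2 fold change 1.16, SE 0.26, edgeR adjusted p = 0.0369). Slc16a3 stood at 9.43 and 13.5 CPM in WT and 18.8 and 35.7 CPM in IL1α-/- (log2 fold change 1.28, SE 0.30, edgeR adjusted p = 0.0405). Slc2a1 stood at 21.5 and 24.3 CPM in WT and 31.7 and 54.7 CPM in IL1α-/- (log2 fold change 0.94, SE 0.24, edgeR adjusted p = 0.0538). IL1α-/- replicate 2 was the high library in all 3, and without it Slc2a3 and Slc16a3 had adjusted p-values of 0.105 and 0.186 in edgeR. Free RNA held Slc2a3 at 17.6 and 12.8 CPM in WT and 21.5 and 86.6 CPM in IL1α-/-, below the T/NK-like level in each library, and Slc16a3 at 24.3 and 37.9 CPM in WT and 49.8 and 70.2 CPM in IL1α-/-, above it in each.

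Eno2, Adm, Car9 and P4ha2 had too few UMIs in T/NK-like cells to be tested, with at most 49 in any library. Of 14 glycolytic enzymes tested, Hk2 was the only one to pass, at 22.6 and 19.9 CPM in WT and 44.1 and 50.8 CPM in IL1α-/- (log2 fold change 1.17, SE 0.17, edgeR adjusted p = 0.00906). In the free RNA it stood at 20.2 and 31.97 CPM in WT and 34.97 and 67.8 CPM in IL1α-/-, above the T/NK-like level in both replicate 2 libraries. The 13 others had log2 fold changes from 0.13 for the phosphoglycerate mutase Pgam1 to 0.84 for the aldolase Aldoa, which stood at 233 and 368 CPM in WT and 357 and 718 CPM in IL1α-/- (log2 fold change 0.84, SE 0.33, edgeR adjusted p = 0.153). In 12 of these 13 the groups overlapped, and Hk1, at 52.3 and 59.2 CPM in WT and 65.9 and 70.7 CPM in IL1α-/-, was the exception. Pfkfb3 stood at 12.9 and 14.1 CPM in WT and 18.8 and 22.2 CPM in IL1α-/- (log2 fold change 0.62, SE 0.19, edgeR adjusted p = 0.0903), with the groups apart.

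Hilpda stood at 128 and 90.5 CPM in WT and 231 and 277 CPM in IL1α-/- (log2 fold change 1.22, SE 0.21, edgeR adjusted p = 0.0151), with both IL1α-/- libraries above both WT libraries. Bnip3 stood at 6.88 and 15.9 CPM in WT and 21.3 and 59.8 CPM in IL1α-/- and just missed the threshold (log2 fold change 1.86, SE 0.46, edgeR adjusted p = 0.0501). P4ha1 at 35.05 and 39.5 CPM in WT and 48.4 and 63.7 CPM in IL1α-/- and Higd1a at 149.9 and 164 CPM in WT and 172 and 295 CPM in IL1α-/- also kept the groups apart without passing (log2 fold change 0.60, SE 0.18, edgeR adjusted p = 0.0799 for P4ha1). Vegfa, in contrast, stood at 71.4 and 55.1 CPM in WT and 87.2 and 66.3 CPM in IL1α-/- in the whole class, with overlapping groups (log2 fold change 0.27, SE 0.19, edgeR adjusted p = 0.411). Mxi1 kept its call whichever library was left out, and the number of members past the test changed with the library. Hk2 and Hilpda lost their calls without WT replicate 2, and Slc2a3 and Slc16a3 without WT replicate 1, WT replicate 2 or IL1α-/- replicate 2. With the changes of processing included, Slc2a3 and Slc16a3 each lost the call in 4 of 14 other settings.

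The make-up of the T/NK-like class differed between hosts, so its parts were tested apart. The CD8 T-like counts were 144 and 267 for WT hosts and 839 and 805 for IL1α-/- hosts, and the NK-like counts 648 and 659 against 273 and 302. In CD8 T-like cells 30 of 31 members had a positive log2 fold change, with a median of 0.70, and 3 rose, where of 8608 genes 49.4% were positive, 1.29% rose and 2.65% passed in either direction. Mxi1 stood at 17.5 and 27.9 CPM in WT and 104 and 98.5 CPM in IL1α-/- (log2 fold change 2.07, SE 0.29, edgeR adjusted p = 0.003). Hilpda stood at 35.01 and 51.1 CPM in WT and 238 and 197 CPM in IL1α-/- (log2 fold change 2.28, SE 0.28, edgeR adjusted p = 0.00167). Bhlhe40, which T cells use to sustain cytokine production, stood at 156 and 169 CPM in WT and 441 and 376 CPM in IL1α-/- (log2 fold change 1.32, SE 0.24, edgeR adjusted p = 0.0139). The groups did not overlap for any of the 3 genes, while the WT libraries differed for Mxi1 and Hilpda, with WT replicate 2 the higher one. The free RNA held Hilpda above these cells in WT replicate 1 and IL1α-/- replicate 2, at 41.96 and 237 CPM. It held Mxi1 above them only in WT replicate 1, at 32.1 CPM, and Bhlhe40 below them in every library. Bhlhe40 lost its call in 2 of 7 other settings. Without WT replicate 1, which held only 144 of these cells, each of the 3 lost its call. The number of members past the test changed with the library left out.

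In NK-like cells 22 of 31 members had a positive log2 fold change, with a median of 0.39, and 5 rose, where of 8655 genes 49.4% were positive, 7.86% rose and 14.2% passed in either direction, so this count alone sets the members little apart from all genes. Vegfa stood at 142 and 133 CPM in WT and 369.9 and 367 CPM in IL1α-/- (log2 fold change 1.42, SE 0.16, edgeR adjusted p = 4.24e-06), and the call was kept in all 7 other settings. The share of NK-like cells with a Vegfa UMI after thinning was 11.9% and 10.3% in WT and 27.3% and 26.9% in IL1α-/- (27.01%, 28.2%, 31.5% and 49.3% without thinning). Both thinned values of a group were nearly equal. Thinning kept 637 of 648 and 649 of 659 NK-like cells in WT and 183 of 273 and 286 of 302 in IL1α-/-. The IL1α-/- replicate 1 value thus rests on its deeper cells. Vegfa rose in the NK-like cells of IL1α-/- hosts, while the whole T/NK-like class, in which NK-like cells were fewer, gave overlapping groups. Hilpda stood at 48.2 and 42.7 CPM in WT and 104 and 99.8 CPM in IL1α-/- (log2 fold change 1.16, SE 0.20, edgeR adjusted p = 0.0006), Mxi1 at 5.62 and 7.65 CPM in WT and 8.41 and 35.8 CPM in IL1α-/- (log2 fold change 1.96, SE 0.46, edgeR adjusted p = 0.00661), Bhlhe40 at 235 and 192 CPM in WT and 319 and 336 CPM in IL1α-/- (log2 fold change 0.63, SE 0.16, edgeR adjusted p = 0.0136) and Slc2a3 at 32.5 and 27.1 CPM in WT and 89.7 and 38.4 CPM in IL1α-/- (log2 fold change 0.93, SE 0.30, edgeR adjusted p = 0.0418). For Mxi1 the log2 fold change was 0.30 without IL1α-/- replicate 2 (edgeR adjusted p = 0.909). For Slc2a3, whose high library was IL1α-/- replicate 1, it was 0.38 without that library (edgeR adjusted p = 0.506), 1.58 without IL1α-/- replicate 2, and 0.79 without WT replicate 2 (edgeR adjusted p = 0.083). Bhlhe40 lost its call without WT replicate 2 and without IL1α-/- replicate 2 (edgeR adjusted p of 0.204 and 0.141). In each library the free RNA held more Mxi1 and less Vegfa than the NK-like cells. It held Hilpda at 41.96 and 43.5 CPM in WT and 72.6 and 237 CPM in IL1α-/-, above the NK-like level in both replicate 2 libraries. Bhlhe40 stood there at 144.5 and 117 CPM in WT and 191 and 334 CPM in IL1α-/-, near the NK-like level only in IL1α-/- replicate 2. For both genes the hosts were apart in the free RNA. Slc2a3 was above the NK-like level there only in IL1α-/- replicate 2, at 86.6 CPM. The number of members past the test was 3 without IL1α-/- replicate 2 and 3 without WT replicate 2. The 14 enzymes tested were even, 7 with a positive and 7 with a negative log2 fold change. In the same cells 12 of 15 proliferation genes fell, Mki67 and Pclaf among them, at 99.5 and 145 against 36.4 and 30.7 CPM and 123 and 104 against 25.2 and 29.4 CPM in WT against IL1α-/-. The part of cell division in the member values was not tested.

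Fibroblast-like cells showed no member past the test by edgeR, out of 34 tested, while 3 had an unadjusted p under 0.05, and of all 9851 genes 0% passed and 5.12% had an unadjusted p under 0.05. The members were evenly divided, 17 with a positive and 17 with a negative log2 fold change (51.1% of all genes were positive), and the median was 0.028. Hk2 stood at 87.5 and 70.8 CPM in WT and 137 and 331 CPM in IL1α-/- (log2 fold change 1.57, SE 0.46, edgeR adjusted p = 0.834), with both IL1α-/- libraries above WT. Adm had a log2 fold change of -1.46 (SE 0.63) with overlapping groups, since only WT replicate 1 was high. WT replicate 2 was the highest library for 16 of the 34 members and IL1α-/- replicate 2 for 12. Vegfa stood at 49.7 and 87.7 CPM in WT and 115 and 102 CPM in IL1α-/- (log2 fold change 0.66, SE 0.34, edgeR adjusted p = 0.834), with the groups apart, and the enzymes Gapdh and Eno1 had log2 fold changes of -0.60 and -0.48 with overlapping groups. The median of the members was -0.36 when IL1α-/- replicate 2 was left out, -0.25 for WT replicate 1, 0.26 for IL1α-/- replicate 1 and 0.57 for WT replicate 2.

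In plasmacytoid dendritic-like cells, 21 members had enough UMIs to be tested, 19 had a positive log2 fold change and 3 rose, where of 5632 genes 50% were positive, 1.65% rose and 1.97% passed in either direction. Hilpda stood at 4.76 and 5.41 CPM in WT and 27.5 and 57.98 CPM in IL1α-/- on UMI counts of 4 and 3 in WT and 6 and 22 in IL1α-/- (log2 fold change 3.13, SE 0.56, edgeR adjusted p = 0.00579). Tpi1, triose phosphate isomerase, stood at 39.3 and 83.01 CPM in WT and 119 and 187 CPM in IL1α-/- (log2 fold change 1.43, SE 0.33, edgeR adjusted p = 0.0288), and Bnip3 at 11.9 and 10.8 CPM in WT and 50.4 and 39.5 CPM in IL1α-/- (log2 fold change 1.91, SE 0.46, edgeR adjusted p = 0.0365). The groups did not overlap for any of the 3. The free RNA of each library held more Hilpda and Tpi1 than these cells, with Hilpda at the free RNA values given above, which kept the hosts apart in the same order, and Tpi1 at 151 and 259.6 CPM in WT and 191 and 359 CPM in IL1α-/-. It held Bnip3 at 20.7 and 46.9 CPM in WT and 47.1 and 122 CPM in IL1α-/-, above these cells in every library but IL1α-/- replicate 1. Bnip3 lost its call when any of the 4 libraries was left out, and Tpi1 without WT replicate 1 or IL1α-/- replicate 2, so that 1 member passed without either of these libraries. Of the 413 cells of this class, 230 lay at the edge of the marker rule.

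**Figure D5:**
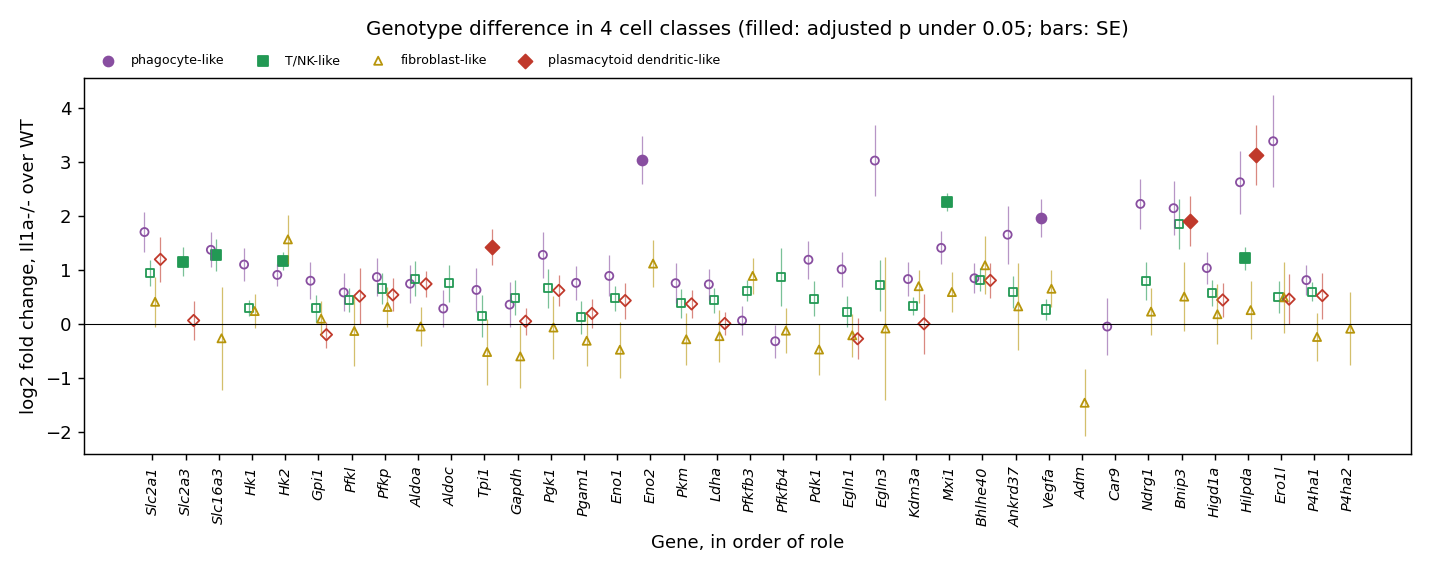
Log2 fold change of each member between IL1α-/- and WT hosts in 4 cell classes, with bars for the standard error and filled symbols for an adjusted p under 0.05. Phagocyte-like points lie mostly above 0 and reach 3.39 for Ero1l, T/NK-like points all lie above 0, and fibroblast-like points scatter around 0.

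Whether the host difference itself differed between classes was tested with a term for class and host together. Between phagocyte-like and T/NK-like cells 28 of 36 members had the larger log2 fold change in phagocyte-like cells, and edgeR called 0 of 36 at an adjusted p under 0.05 with 12 at an unadjusted p under 0.05. Of 11087 genes 46.6% had the larger value in phagocyte-like cells, 0.55% passed and 10.3% had an unadjusted p under 0.05. Egln3 had the smallest p (log2 difference 2.22, SE 0.47, edgeR adjusted p = 0.0637), followed by Ero1l (log2 difference 2.52, SE 0.57, edgeR adjusted p = 0.0839) and Vegfa (log2 difference 1.71, SE 0.40, edgeR adjusted p = 0.0915). With DESeq2's size factors 4 members passed, and the number also changed with the library left out. The share of all genes that passed in those fits is not given here. Between phagocyte-like and fibroblast-like cells, a comparison added after the data were seen, 31 of 36 members had the larger value in phagocyte-like cells, as did 49.1% of all genes. By edgeR 0 of 36 passed, with 23 at an unadjusted p under 0.05, where 0.0457% and 5.04% of 10948 genes did. The number past the test changed with the library left out. Hilpda had the smallest adjusted p there (log2 difference 2.32, SE 0.38, edgeR adjusted p = 0.119).

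Between T/NK-like and fibroblast-like cells, also added after the data were seen, 31 of 36 members had the larger value in T/NK-like cells and 1 passed, where 46.2% and 0.201% of 11916 genes did. This was Mxi1 (log2 difference 1.65, SE 0.32, edgeR adjusted p = 0.0424). It stood at 40.3 and 31.4 CPM in WT and 35.6 and 68.4 CPM in IL1α-/- in fibroblast-like cells, where the groups overlapped, against 15.2 and 16.4 CPM in WT and 65.5 and 80.7 CPM in IL1α-/- in T/NK-like cells. With DESeq2's size factors the adjusted p was 0.0564 in edgeR, and the number of members past the test changed with the library left out.

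Further genes of the same pathways were read from lists beside the members. In phagocyte-like cells 30 of 36 other hypoxia-response genes had a positive log2 fold change and 2 rose, Nos2, the inducible nitric oxide synthase, at 0 and 10.05 CPM in WT and 89.9 and 169 CPM in IL1α-/- (log2 fold change 4.51, SE 0.69, edgeR adjusted p = 0.036) and Wsb1, a ubiquitin ligase component, at 128 and 92.95 CPM in WT and 313 and 306 CPM in IL1α-/- (log2 fold change 1.49, SE 0.24, edgeR adjusted p = 0.036). Of 20 other glycolysis and branch genes 12 were positive and Gbe1, the glycogen branching enzyme, rose, with 12.7 and 23.2 against 49.95 and 95.5 CPM in WT against IL1α-/- (log2 fold change 2.10, SE 0.36, edgeR adjusted p = 0.0382). Of 11 regulators of HIF 9 were positive and edgeR called 0, with 3 at an unadjusted p under 0.05. Of 26 oxidative phosphorylation genes 8 were positive, with a median of -0.14, and edgeR called 0, with 0 at an unadjusted p under 0.05. Of 12 dissociation-response genes 9 were positive and Fosb, an immediate early gene, rose (log2 fold change 1.59, SE 0.24, edgeR adjusted p = 0.036).

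In T/NK-like cells 23 of 38 other hypoxia-response genes had a positive log2 fold change, 5 rose and 1 fell. The metallothioneins Mt1 and Mt2, which bind metal ions, stood at 13.9 and 30.7 against 132 and 148 CPM and 2.17 and 5.03 against 23.7 and 26.3 CPM in WT against IL1α-/- (log2 fold change 2.63, SE 0.31, edgeR adjusted p = 0.00454 for Mt1), and S100a4, Wsb1 and Sap30 also rose, while Nrn1 fell (log2 fold change -1.74, SE 0.37, edgeR adjusted p = 0.0309). Of 13 HIF regulators 11 were positive, Hif1a and Epas1, the HIF alpha subunits, rose and Arnt2 fell. Hif1a stood at 175 and 168 CPM in WT and 281 and 352 CPM in IL1α-/- (log2 fold change 0.88, SE 0.18, edgeR adjusted p = 0.0255), and Epas1 at 14.7 and 13.7 CPM in WT and 25.9 and 30.02 CPM in IL1α-/- (log2 fold change 0.99, SE 0.18, edgeR adjusted p = 0.0187). Both IL1α-/- libraries were above both WT libraries for both subunits. Of 25 other glycolysis and branch genes 9 were positive, with 0 called by edgeR and 7 at an unadjusted p under 0.05, and of 26 oxidative phosphorylation genes 10 were positive, with 0 called and 4 at an unadjusted p under 0.05. All 15 proliferation genes were positive and Mcm6 rose (log2 fold change 0.74, SE 0.16, edgeR adjusted p = 0.0345). Of 12 dissociation-response genes 3 rose and 3 fell, with Hspa1a, a heat shock gene, at 108 and 15.6 against 4.31 and 3.21 CPM in WT against IL1α-/-.

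The Arg1 split also separated these lists. Among 35 other hypoxia-response genes tested, 27 were higher in Arg1-positive cells and 12 passed in that direction, 1 of them Arg1, which set the split. Fam162a, Plod1, Hmox1 and Ddit4 were among the others, and S100a4 and Tpd52 were lower. Of 17 other glycolysis and branch genes 5 were higher past the test, Gbe1 and the cytokine Mif among them, and 3 were lower, among them Ldhb, the heart-type lactate dehydrogenase. Of 26 oxidative phosphorylation genes 13 were higher and 13 lower, with Ndufa4 and Cycs lower past the test. Of 11 HIF regulators 5 were higher, and edgeR called 0, with 0 at an unadjusted p under 0.05.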

How the data were processed

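Single-cell RNA of 4 tumours was read with 10x 3′ libraries. The deposited files hold raw UMI counts per gene and barcode, 1 library per table and every barcode included, made by the authors with Cell Ranger 3.1.0 against a combined human and mouse reference (GRCh38 and mm10), per the file headers and the submitters' processing notes. The features table holds identifiers and the barcode table holds barcodes, with no measurement. Aligner settings are not given in the sources used here.

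Cells were called at 500 or more UMIs, 250 or more genes and at most 20% mitochondrial UMIs. Scrublet scores were used to remove the top 0.8% per 1000 cells as doublets. No test against empty droplets was applied beyond these limits. A cell joined the class with the most detected markers, if these were at least 3 and at least 2 times those of the next class. The marker lists are listed with the design, and this rule was set after the data were seen. Cells of a class that a stricter rule (4 markers, 3 times) would drop were counted as lying at its edge. Sub-classes used the same kind of rule, and Arg1-positive means at least 1 Arg1 UMI. UMIs were summed per library and class, for classes with at least 20 cells in every library, so conventional dendritic-like cells were not tested.

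Sums were tested with edgeR 4.0.16 (filterByExpr, TMM, quasi-likelihood) over all genes that passed the filter, and p-values were adjusted by the Benjamini-Hochberg method, with calls at an adjusted p under 0.05. Host comparisons used 4 libraries. Comparisons between classes had the library as a block, and their CPM carry another TMM scaling than those of the host comparisons. SE is the log2 fold change divided by the square root of the F statistic. DESeq2 1.42.0 was an alternative, and the fits were tested on simulated data. Shares of cells carry exact Clopper-Pearson 95% intervals, which, like the Poisson intervals and limits from 3 counts, cover counting error only. The members, lists and tests were chosen with earlier results of these data known. Values per sample are given for members past the test, for the 12 members of smallest p in phagocyte-like and in T/NK-like cells, for a few others chosen after their values were seen, and for called genes of the other lists.

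Replicate numbers are not tied to a collection day in the labels. Other settings were scaling, filter, tool, each library left out, cell limits, doublets, clusters in place of gates, stricter gates and a replicate block.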

Additional observations from a re-analysis of the deposited data

Results flagged for a closer look

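One difference between cell classes in the response to the host was past the test. For Mxi1 the log2 fold change between IL1α-/- and WT hosts was 1.65 larger in T/NK-like than in fibroblast-like cells (SE 0.32, edgeR adjusted p = 0.0424). The comparison was added after the data were seen, and the cause of the difference was not tested.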

How the results depend on the processing

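Of 83 calls of single members over all comparisons, 47 were kept in every other setting run, 36 were lost in at least 1, and 0 changed sign. The 83 pool host comparisons with comparisons between kinds of cell, 30 of them between phagocyte-like and T/NK-like cells. Of the calls between hosts within a class, few were kept in every setting run. They were Mxi1 in T/NK-like, Hilpda in plasmacytoid dendritic-like, and Hilpda and Vegfa in NK-like cells. Each other host call was lost in at least 1. The number of members past the test in phagocyte-like cells was 2 as reported. It was 20 with no filter on low counts, 4 with DESeq2, 0 at 1000 or more UMIs per cell, 1 at 10% or less mitochondrial UMIs, 4 with no doublet removal, 1 with classes from clusters, 0 in cells with fewer than 3 proliferation genes, 9 in Arg1-positive and 0 in Arg1-negative cells alone, and 0 to 23 with libraries left out. At the counts of 0 in whole-class settings, 24 and 25 members had an unadjusted p under 0.05 with the limit of 1000 UMIs and the limit on proliferation genes, and 5 had one without IL1α-/- replicate 2. In T/NK-like cells it was 5 as reported, 16 with no filter, 8 in cells with fewer than 3 proliferation genes and 1 to 21 with libraries left out. With no filter it was 1 in fibroblast-like, 12 in macrophage-like, 12 in monocyte-like and 11 in CD8 T-like cells. With libraries left out it was 1 to 3 in plasmacytoid dendritic-like, 0 to 13 in macrophage-like, 0 to 18 in monocyte-like, 0 to 14 in CD8 T-like and 3 to 5 in NK-like cells. For the difference in host response between phagocyte-like and T/NK-like cells it was 4 with DESeq2's size factors, 5 with no filter and 0 to 8 with libraries left out. Against fibroblast-like cells it was 6 with no filter and 0 to 6 with libraries left out for phagocyte-like cells, and 0 with DESeq2's size factors, 2 with no filter and 1 to 4 with libraries left out for T/NK-like cells. It was 15 to 30 for the Arg1 split with libraries left out, and 6 with no filter between macrophage-like and monocyte-like cells. Where no share of all genes past the test is given for a setting, its count shows only how the calls depend on that setting. Such a count does not set the members apart from all genes. The cause of these changes was not tested.

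A replicate block in the fit gave counts of members past the test of 25 of 34 in phagocyte-like, 14 of 33 in T/NK-like, 6 of 21 in plasmacytoid dendritic-like, 6 of 33 in macrophage-like, 6 of 31 in CD8 T-like and 9 of 31 in NK-like cells. Under the same fits 5.49%, 15.4%, 5.59%, 1.05%, 2.66% and 19.3% of all genes passed. In fibroblast-like and monocyte-like cells the number of members past the test stayed at 0 with the block, as in the reported fits. The labels do not tie a number to a collection day, so whether libraries of the same number share a day is not known. Deviations of same-numbered libraries from the group means correlated at 0.031 in phagocyte-like, 0.166 in T/NK-like and 0.427 in fibroblast-like cells, across genes. The summed share of the 37 members was higher in replicate 2 than in replicate 1 of both hosts in all 4 host classes.

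Without thinning, the share of cells with a Vegfa UMI was 9.90% and 17.5% in WT and 39.6% in IL1α-/- replicate 2 for phagocyte-like cells, 27.01% and 28.2% in WT and 49.3% in IL1α-/- replicate 2 for NK-like cells, and 5.96% in IL1α-/- replicate 2 for CD8 T-like cells. Depth limits IL1α-/- replicate 1 most, where 140 phagocyte-like cells had a median of 1736 UMIs.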
